A study of Rattus norvegicus with 23 samples.

Results

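The sterol efflux transporters and the liver X receptor (LXR) axis are described here through 8 genes: Abcg5, Abcg8, Abca1, Abcg1, Nr1h3, Nr1h2, Mylip and Lpcat3. They were chosen by symbol, from a list proposed with the counts and fold changes of these same libraries in view, and make up 8 of the 28913 rows of the deposited count table. They also all passed the filter on low counts, which kept 15079 genes. The fold changes and adjusted p-values below describe the genes and are not independent support for any pattern among them.

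The libraries were made from liver of Sprague Dawley rats, an outbred strain, in a series on models of portosinusoidal vascular disease. Control livers (n = 6 libraries) came from rats with no treatment. LPS livers (n = 7) came from rats that had a laparotomy under isoflurane, with a catheter placed so that it reached the portal vein; a bolus of 1 mg/kg lipopolysaccharide was given through it 2 times a week for 8 weeks. Selfox livers (n = 10) came from rats fed a selenium-enriched diet for 8 weeks, with 8 weekly intravenous injections that combined folinic acid at 45 mg/kg, 5-FU at 25 mg/kg and oxaliplatin at 3 mg/kg. Surgery and catheter cannot be told apart from lipopolysaccharide in the LPS group, nor the diet from the 3 drugs in the Selfox group. Age, sex and hour of sampling are not given in the labels. The labels also do not say that each library is a separate rat, so the p-values measure the spread between libraries.

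Cholesterol can leave the hepatocyte into bile or onto HDL, among other routes. ABCG5 and ABCG8 pair into a single transporter on the canalicular membrane and move cholesterol and plant sterols into bile. ABCA1 passes cholesterol and phospholipid to apolipoprotein A-I to start an HDL particle, and ABCG1, best known in macrophages, adds cholesterol to HDL that has already formed. The nuclear receptors LXRα (Nr1h3) and LXRβ (Nr1h2) bind oxysterols, pair with RXR on DNA, and are known to raise transcription of these transporters, of Srebf1, of Mylip, whose product is a ubiquitin ligase, and of Lpcat3, which puts polyunsaturated fatty acids into membrane phosphatidylcholine.

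Abcg5 and Abcg8 are direct neighbours on chromosome 6 and are read in opposite directions from start sites with 205 bases between them in the RefSeq annotation of GRCr8. The sequence between the start sites is shown because it lies before both genes and because their levels are followed together below. It is chr6:15717731-15717935 on the plus strand, the strand of Abcg5, and capitals mark AGATAA, the box that GATA factors are known to read.

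Abcg5 and Abcg8 shared promoter: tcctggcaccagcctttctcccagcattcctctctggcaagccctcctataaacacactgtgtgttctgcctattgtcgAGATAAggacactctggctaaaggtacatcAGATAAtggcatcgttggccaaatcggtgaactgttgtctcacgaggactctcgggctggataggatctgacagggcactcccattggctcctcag

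Of the 2 boxes, the first lies 126 bases before the Abcg5 start and, on the other strand, 85 bases before the Abcg8 start. The second lies 96 bases before the Abcg5 start and 115 before the Abcg8 start. Searched on both strands over windows from 250 bases before to 50 after a start site, AGATAA was in 11.6% of the 33469 promoters of the RefSeq table. Among the 7 listed genes with an entry it was in 3, namely Abcg5, Abcg8 and Nr1h3, and Abcg5 and Abcg8 share the same boxes. Abcg1 had no entry. The stretch is a description of sequence and says nothing on binding.

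Of the 8 genes, 7 passed the test between Selfox and Control livers, against 29.1% of all genes tested, at an adjusted p below 0.05 in edgeR's quasi-likelihood F test. Abcg5, Abcg8, Abcg1, Nr1h2 and Mylip were lower (14.9% of all genes were called lower), Nr1h3 and Lpcat3 were higher (14.2% were called higher), and Abca1 was not called. Between LPS and Control livers 1 of the 8 passed, Lpcat3, which was higher, against 14.7% of all genes called in either direction and 7.71% called higher. Between Selfox and LPS livers 5 of the 8 passed, all lower in Selfox, against 14.5% of all genes in either direction and 7.64% called lower. These 5 were Abcg5, Abcg8, Abca1, Abcg1 and Mylip. Dbp, a clock output gene, exceeded Arntl, the clock gene of opposite phase, in Selfox 8, in LPS 5, 6 and 7 and in Control 55, called the later clock phase here. In Selfox 8 the 2 genes were nearly equal, at 3.352 and 3.348 log2 CPM, so its place in this set is uncertain. They were at 3.99 and 3.32 in LPS 7, and at 5.10 and 2.60 in Control 55. Without these 5 libraries, which left 5 Control, 4 LPS and 9 Selfox libraries, Mylip alone of the 8 passed between Selfox and LPS (adjusted p in edgeR 0.0332, against 0.0645 for Abcg5, 0.0812 for Abcg8, 0.0746 for Abca1 and 0.127 for Abcg1). In that fit 1434 genes in all were called, against 2187 with all libraries. Between Selfox and Control 7 of the 8 passed, with 4920 genes called in all, against 4385 with all libraries. The log2 fold changes between Selfox and LPS without the 5 libraries were -1.72 for Abcg5 (-2.09 with all libraries), -1.94 for Abcg8 (-2.28), -0.33 for Abca1 (-0.36), -0.33 for Abcg1 (-0.46) and -0.67 for Mylip (-0.88), so each kept its direction with 5 fewer libraries. The median log2 fold change of the 8 genes was 0.06 for LPS against Control, -0.28 for Selfox against Control and -0.41 for Selfox against LPS. Over all genes tested it was 0.0058, 0.0115 and 0.0016. LPS and Selfox were compared with the same 6 controls, so those comparisons are not independent of each other.

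**Figure D1:**
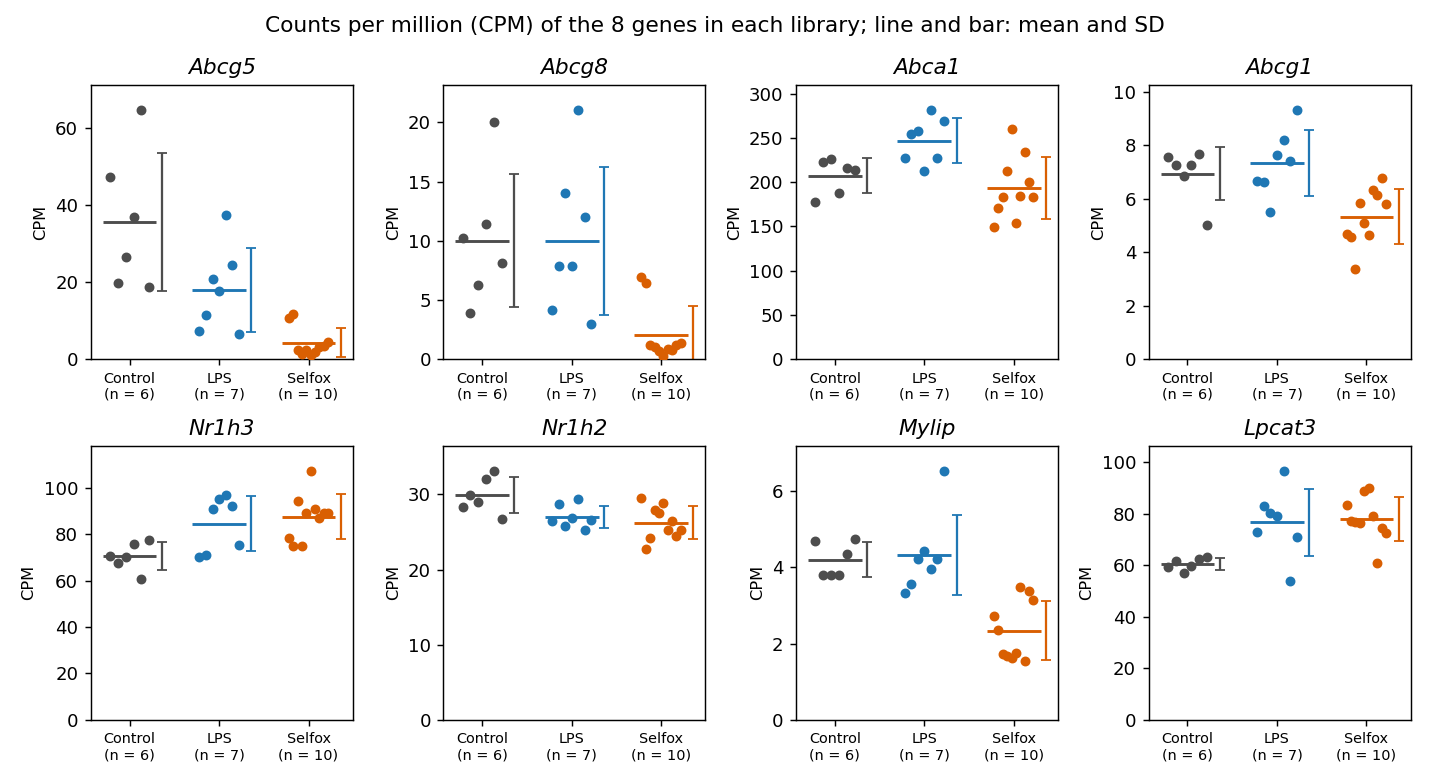
CPM (a gene's counts scaled to library size, vertical axis, linear from 0) of the 8 genes in every library of the Control (n = 6), LPS (n = 7) and Selfox (n = 10) groups; points are libraries, lines are means and bars the SD, which for Abcg8 in Selfox runs below 0 and is cut off at the axis. Abcg5 and Mylip have no overlap between Selfox and Control, and Abcg8 has 8 of 10 Selfox libraries below the lowest control.

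Abcg5 was the listed gene with the largest fall in Selfox livers. In CPM, a gene's counts scaled to the size of its library, Control livers ran from 18.6 to 64.6 with a median of 31.6, and LPS livers from 6.49 to 37.3 with a median of 17.8. Selfox livers ran from 0.921 in Selfox 6 to 11.6 in Selfox 2 with a median of 2.74. The means were 35.5 ± 17.9 (SD, n = 6), 17.9 ± 10.9 (n = 7) and 4.20 ± 3.77 (n = 10) CPM in that order. All 10 Selfox libraries were below all 6 controls, an absence of overlap that 2.55% of genes showed in that direction. The fitted level was 8.46-fold lower than Control (log2 fold change -3.08 ± 0.50 SE, adjusted p 0.00014 in edgeR). Against LPS livers Abcg5 was lower by a log2 fold change of -2.09 ± 0.47 (adjusted p 0.00513 in edgeR), and 8 of 10 Selfox libraries were below the lowest LPS library. In bulk tissue fewer cells of a type and less RNA per cell cannot be told apart.

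In LPS livers Abcg5 had a log2 fold change of -0.99 ± 0.53 against Control, which did not pass (adjusted p 0.219 in edgeR), with 4 of 7 LPS libraries below all controls. Voom of limma called that value (-1.30, adjusted p 0.0263), and the other 9 alternatives did not. The spread among libraries was wide in every group: the highest library held 3.48 times the lowest among controls, 5.74 times in LPS and 12.6 times in Selfox.

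Abcg8 also fell in Selfox livers, while its LPS and Control levels covered nearly the same range. Control livers ran from 3.86 to 20.1 CPM with a median of 9.21, LPS livers from 3.00 to 21.1 with a median of 7.84, and Selfox livers from 0.255 to 6.92 with a median of 1.07. The means were 10.01 ± 5.63 (SD, n = 6), 9.97 ± 6.26 (n = 7) and 2.05 ± 2.46 (n = 10) CPM. In Selfox it was 4.88-fold lower than Control (log2 fold change -2.29 ± 0.58, adjusted p 0.0057 in edgeR). The exceptions were Selfox 1 at 6.92 CPM and Selfox 2 at 6.45 CPM, which lay within the control range, while the other 8 were at or below 1.33 CPM. Abcg5 was also highest in those 2 libraries, at 10.6 and 11.6 CPM. Against LPS livers Abcg8 had a log2 fold change of -2.28 ± 0.56 (adjusted p 0.00898 in edgeR). Between LPS and Control it was close to 0, at -0.01 ± 0.63 (adjusted p 0.996 in edgeR), a value whose sign changed in 7 of 13 fits that left out a library.

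Abcg5 and Abcg8 moved together within each group. The relation was computed in the 3 groups apart, on log2 CPM, with adjustment over the 3. In Control livers Pearson's r was 0.849 (exact permutation p 0.0306, adjusted 0.0306) and Spearman's rho 0.771 (exact p 0.103, adjusted 0.103). Leaving out the 2 libraries farthest from the median of Abcg5 (Control 52 and Control 55) gave r 0.933 over 4 libraries. In LPS livers r was 0.966 (exact permutation p 0.00119, adjusted 0.00179) and rho 0.964 (exact p 0.00278, adjusted 0.00833), with r 0.895 without LPS 7 and LPS 1. In Selfox livers r was 0.933 (permutation p 0.00102, adjusted 0.00179) and rho 0.794 (permutation p 0.00872, adjusted 0.0131), with r 0.755 without Selfox 2 and Selfox 1. In each group r stayed positive without the farthest pair, and the rank relation among controls did not pass. Over the libraries without the later clock phase r was 0.967 in Control (n = 5), 0.911 in LPS (n = 4) and 0.950 in Selfox (n = 9), given as values with no test, an addition made after the data were seen. The later phase holds too few libraries of any group for a value of its own.

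**Figure D2:**
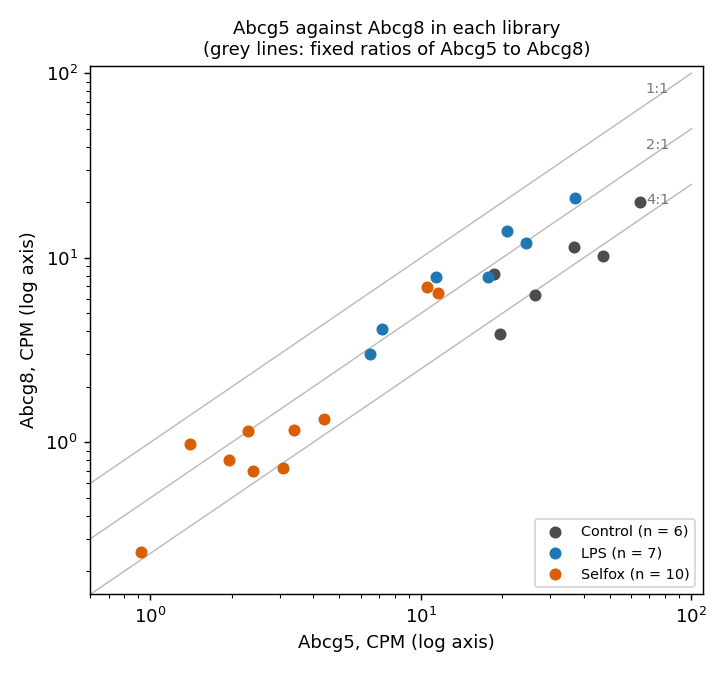
Abcg8 (vertical) against Abcg5 (horizontal) in CPM on log axes, a point for each of 23 libraries, coloured by group; grey lines mark fixed ratios of Abcg5 to Abcg8. Within each group the points rise together (r of 0.966 in LPS, 0.933 in Selfox and 0.849 in Control), and the LPS points lie at lower ratios than the controls.

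The balance of the pair differed between LPS and Control livers. The ratio of Abcg5 to Abcg8 counts, added after the values were seen, does not depend on library size. It was 2.28 to 5.09 in Control livers with a median of 3.72, and 1.45 to 2.27 in LPS livers with a median of 1.77. All 7 LPS libraries were below all 6 controls, a log2 difference of -1.0 (exact two-sided permutation p 0.00117, adjusted over 3 comparisons 0.0035). In Selfox livers the ratio ran from 1.43 to 4.29 with a median of 2.66. It differed from Control by -0.54 (exact permutation p 0.0589, adjusted 0.0589) and from LPS by 0.46 (exact permutation p 0.0586, adjusted 0.0589), neither past the threshold. Without the 5 libraries of the later clock phase, the Selfox with Control difference was -0.76 (exact permutation p, adjusted, 0.0238). In the same test LPS with Control was then -1.23 (adjusted 0.0238) and Selfox with LPS was 0.47 (adjusted 0.1175), which did not pass. The ratio mixes gene lengths and is read only between groups.

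Enterocytes are the other cell type that carries this transporter at high level, and 5 of their markers were listed. Of these, 4 had a row and 1 passed the filter (Fabp2), which was not called in any comparison. Their summed level was 1.33 to 4.26 CPM over all libraries, Alpi was at 0 in every library, and Lct was at 0 in every Selfox library. The summed level of 10 hepatocyte markers overlapped between groups, with 162400 to 241300 CPM in Control, 125500 to 200600 in LPS and 139700 to 169600 in Selfox. Single hepatocyte markers went both ways in Selfox against Control, where 14.9% of all genes were called lower and 14.2% higher. Hnf4a, a nuclear receptor (log2 fold change -0.53 ± 0.09, adjusted p 0.000198 in edgeR), Alb (-0.50) and Serpina1 (-0.35) were lower. Cps1 (0.53), Apob (0.28) and Tf (0.23) were higher, and 4 of the 10 hepatocyte markers were not called. The part of these genes in the levels of Abcg5 and Abcg8 was not tested.

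Abca1 RNA passed the test between the models and did not pass between either model and Control. Control livers ran from 177 to 226 CPM with a median of 215, LPS livers from 212 to 282 with a median of 254, and Selfox livers from 149 to 261 with a median of 184. LPS livers were higher in 6 of 7 libraries than any control, but the log2 fold change of 0.25 ± 0.11 did not pass (adjusted p 0.124 in edgeR). Selfox livers had -0.10 ± 0.10 against Control (adjusted p 0.485) and fell by 0.36 ± 0.10 on the log2 scale against LPS (adjusted p 0.0151 in edgeR), with 7 of 10 libraries below the lowest LPS library.

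A direct repeat of the LXR type with 4 bases between its parts lies just before the Abca1 start, in the sequence chr5:72596474-72596573 of GRCr8 on the minus strand. It is shown because Abca1 is a known LXR target. The motif GGTTANNNNCGGTCA was spelled from this sequence, without the first base of the first hexamer, so that its match here is no finding. It is in capitals as read on the opposite strand, from 70 to 56 bases before the start.

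Abca1 promoter: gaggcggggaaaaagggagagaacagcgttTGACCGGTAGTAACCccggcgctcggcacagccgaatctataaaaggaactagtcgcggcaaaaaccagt

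Searched on both strands, these letters were in 3 of 33469 RefSeq promoters (0.00896%), a share that the choice of letters also set. The general form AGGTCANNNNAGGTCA was in 2 of them (0.00598%) and in 0 of the 7 listed genes with an entry, and the single hexamer AGGTCA was in 16.2% of promoters and likewise in 0 of 7. No match says only that these letters are not in the window.

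Abcg1 levels were low, from 5.00 to 7.68 CPM in Control livers (median 7.25), from 5.49 to 9.32 in LPS livers (median 7.40) and from 3.37 to 6.78 in Selfox livers (median 5.44). All groups overlapped, with 4 of 10 Selfox libraries below all controls. Abcg1 fell in Selfox by 0.38 ± 0.13 on the log2 scale against Control (adjusted p 0.0315 in edgeR) and by 0.46 ± 0.12 against LPS (adjusted p 0.0140). The first of these is fragile: it was lost in 6 of 16 fits without a library, namely without Control 40, Control 41, Control 46, Control 49, Control 52 or Selfox 6 (adjusted p up to 0.0835), with no low-count filter (adjusted p 0.0509) and with counts thinned to equal depth (adjusted p 0.0586). LPS with Control was 0.08 ± 0.14 (adjusted p 0.754).

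Most markers tested of macrophages, the cells in which ABCG1 is best known, were also lower in Selfox livers. Of 13 Kupffer cell and macrophage markers tested, 11 were lower in Selfox than in Control (14.9% of all genes) and 11 lower than in LPS (7.64%). In LPS 1 was higher than in Control (7.71%). The summed level of the 13 was 925 to 1226 CPM in Control livers, 768 to 1179 in LPS livers and 407 to 581 in Selfox livers, with none of the 13 at 0 in any library. Marco, a scavenger receptor of Kupffer cells, fell by 2.94 ± 0.14 on the log2 scale in Selfox against Control (adjusted p 7.7e-13 in edgeR), Vsig4 fell by 2.03 ± 0.12 (1.39e-10) and Clec4f fell by 1.68 ± 0.14 (3.95e-08). The part of macrophage RNA in the levels of Abcg1, Abca1 and Mylip was not tested.

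The receptors moved in opposite directions in Selfox livers, and both changes were small. Nr1h3, the LXR of liver and macrophages, ran from 60.7 to 77.4 CPM in Control livers (median 70.5), 70.1 to 96.9 in LPS (median 90.8) and 74.7 to 107 in Selfox (median 89.0). Selfox livers were higher by a log2 fold change of 0.31 ± 0.09 (adjusted p 0.00907 in edgeR), and 8 of 10 were above all controls. LPS livers had 0.26 ± 0.09 (adjusted p 0.0577), which passed with DESeq2 (adjusted p 0.0438) and in 3 of 13 fits without a library. The LPS group fell into a low set of 3 (LPS 1, LPS 2 and LPS 7, at 70.1 to 75.2 CPM) and a higher set of 4 (90.8 to 96.9).

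Nr1h2, the ubiquitous LXR, ran from 26.7 to 33.2 CPM in Control livers (median 29.4), 25.3 to 29.4 in LPS (median 26.6) and 22.7 to 29.5 in Selfox (median 25.9). It fell in Selfox by 0.19 ± 0.06 on the log2 scale (adjusted p 0.0222 in edgeR), with 6 of 10 below all controls. That call was lost without Control 41, Control 49 or Control 52 (adjusted p up to 0.0940) and with no filter (0.0652). In LPS it was -0.15 ± 0.07 (adjusted p 0.139). Between Selfox and LPS neither receptor passed, with log2 differences of 0.05 ± 0.08 for Nr1h3 (adjusted p 0.744) and -0.04 ± 0.06 for Nr1h2 (adjusted p 0.683); a p that misses the threshold does not show that they are equal.

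**Figure D3:**
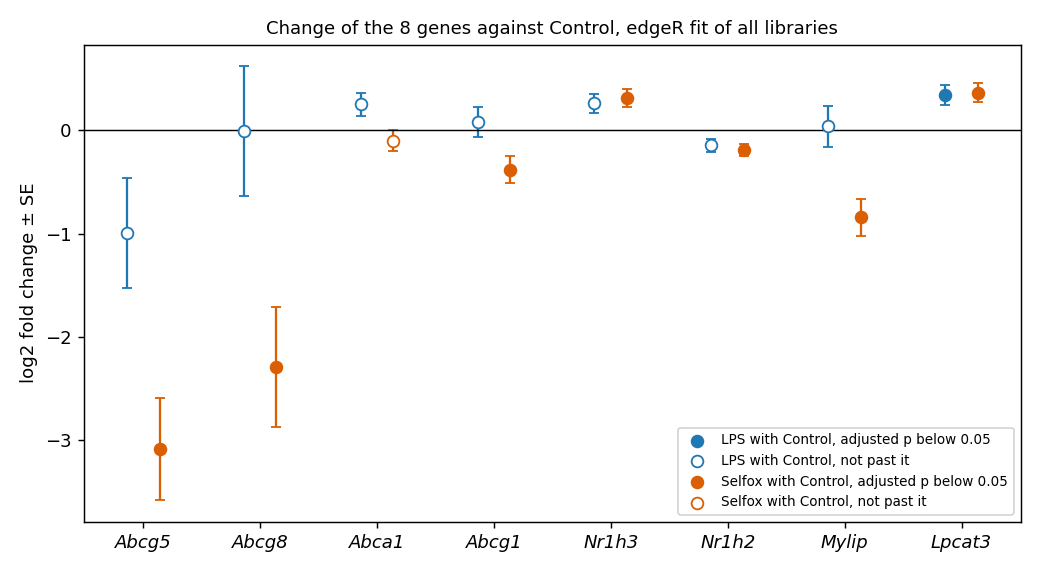
Log2 fold change against Control with its SE (vertical axis) of the 8 genes (horizontal axis) in LPS (blue) and Selfox (orange), by edgeR over all 23 libraries; filled circles passed an adjusted p of 0.05. Abcg5 and Abcg8 lie lowest in Selfox, at -3.08 and -2.29, and Lpcat3 is the gene with filled circles in both models.

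Mylip and Lpcat3, both LXR targets, moved in opposite directions in Selfox livers. Mylip ran from 3.79 to 4.74 CPM in Control (median 4.07), from 3.33 to 6.54 in LPS (median 4.21) and from 1.53 to 3.48 in Selfox (median 2.05). All 10 Selfox libraries were below all controls, so that 2 of the 8 genes, Abcg5 and Mylip, had no overlap in that direction (2.55% of all genes). Mylip fell by 0.84 ± 0.18 on the log2 scale against Control (adjusted p 0.00146 in edgeR) and by 0.88 ± 0.17 against LPS (adjusted p 0.00134), with 8 of 10 below the lowest LPS library. LPS and Control differed by 0.04 ± 0.20 (adjusted p 0.916).

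Lpcat3 was narrow among controls, from 57.0 to 62.9 CPM (median 60.7), and ran from 53.8 to 96.7 in LPS (median 79.1) and from 60.8 to 89.9 in Selfox (median 77.1). In LPS 6 of 7 libraries were above all controls and LPS 6 was below them. In Selfox 9 of 10 were above all controls. It rose by 0.34 ± 0.10 on the log2 scale in LPS (adjusted p 0.0210 in edgeR), a call lost without LPS 5 (0.0507), and by 0.36 ± 0.09 in Selfox (adjusted p 0.00436). Selfox and LPS differed by 0.02 ± 0.09 (adjusted p 0.896).

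Emg1 overlaps Lpcat3 and Acp2 overlaps Nr1h3 in the RefSeq annotation of GRCr8, and the strand setting of the counting is not given in the sources used here. Emg1 was 0.13 ± 0.07 in LPS (adjusted p 0.256 in edgeR) and 0.08 ± 0.07 in Selfox (0.417), and neither passed. Pearson's r with the group means removed was 0.911 for Emg1 with Lpcat3 and 0.46 for Acp2 with Nr1h3. The part of such neighbour reads was not tested. Acp2 was 0.18 ± 0.07 in Selfox (adjusted p 0.0619 in edgeR). Levels of Lpcat3 and Nr1h3 stand as uncertain to the extent that reads of the neighbour were assigned to them.

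Genes whose pattern was most like each listed gene were ranked by Pearson's r over 23 libraries with the group means removed, among 10548 genes, as a description. For Abcg5 the first was Abcg8 (0.928), then Ppat (0.760), and for Abcg8 Abcg5 was followed by Ppat (0.696) and Ppara (0.675). Lpcat3 was closest to its overlapping neighbour Emg1 (0.911) and Mylip to Kremen1 (0.823). Abca1 was closest to AABR07048271.1 (0.871) and Rab11fip4 (0.856), Abcg1 to Mbtps1 (0.794), Nr1h3 to Nabp1 (0.773) and Nr1h2 to Ercc1 (0.723). Apart from Abcg5 with Abcg8, pairs of the 8 genes had r from -0.305 to 0.424. The points share the depth and composition of their libraries.

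Other LXR targets moved in both directions. Of 16 tested, 6 were higher and 1 lower in LPS than in Control (median 0.47, against 0.01 for all genes), 8 higher and 3 lower in Selfox (median 0.52), and 1 higher and 3 lower in Selfox against LPS. The shares of all genes called higher and lower were 7.71% and 6.99%, 14.2% and 14.9%, and 6.86% and 7.64% in that order. The LPS count of 7 became 3 when only the 2 groups were fitted, 4 without Control 40, Control 41, Control 49, Control 52 or LPS 5, and 9 without Control 55. Srebf1, the lipogenic SREBP, rose by 1.68 ± 0.40 on the log2 scale in LPS (adjusted p 0.00741 in edgeR) and by 1.26 ± 0.37 in Selfox (0.014). In Selfox, Cd5l fell by 1.26 ± 0.13 (5.77e-07), Pltp, which transfers phospholipid to HDL, by 0.95 ± 0.12 (5.57e-06), and Smpdl3a by 0.72 ± 0.07 (6.57e-07). Cd5l is also on the macrophage list and Pltp on the HDL list.

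**Figure D4:**
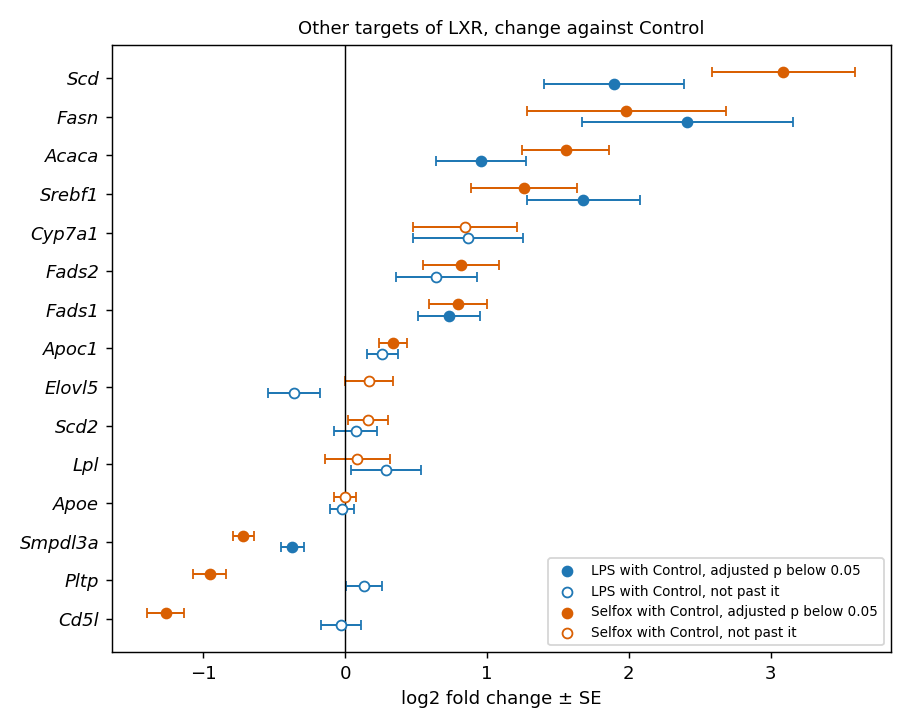
Log2 fold change against Control with its SE (horizontal axis) of 15 of the 16 further LXR targets (rows) in LPS (blue) and Selfox (orange), by edgeR over all 23 libraries; filled circles passed an adjusted p of 0.05. Selfox has 7 filled circles above 0 and 3 below it (Smpdl3a, Pltp and Cd5l), and LPS has 5 above and 1 below.

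Control 55 stood apart from the other controls in lipogenic targets, some of which are named after their values were seen. Scd, a desaturase, rose by 3.09 in Selfox (adjusted p 0.000154 in edgeR), above all controls in 10 of 10 libraries. Control 55 held 3718 CPM of Scd against at most 1416 in the other controls, and 1551 CPM of Fasn against at most 190 (Fasn, a synthase of fatty acids). Without Control 55 the log2 fold change of Fasn in LPS moved from 2.41 to 4.08, a call that was lost in 7 of the 13 fits without a library, and that of Srebf1 from 1.68 to 2.25. Among the 8 genes themselves Control 55 was the lowest control for Abcg5, Abcg1 and Nr1h2 and the highest for Nr1h3, Mylip and Lpcat3.

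The counts of the next 3 lists stand against 14.2% of all genes called higher and 14.9% lower in Selfox, and 7.71% and 6.99% in LPS. Of 12 RXR partners and coregulators of LXR, 3 were higher and 2 lower in Selfox. In LPS 1 was higher and 2 lower, a count of 3 (1 without Control 41, Control 49, Control 52 or LPS 5, and 1 with no low-count filter). Rxrb fell by 0.45 ± 0.07 in Selfox (adjusted p 6.28e-05 in edgeR). Of 10 oxysterol genes, 4 were higher in LPS and 5 in Selfox, among them Cyp7b1, an oxysterol 7-hydroxylase, at 1.12 ± 0.21 in LPS (adjusted p 0.00112) and 1.36 ± 0.20 in Selfox (3.57e-05). Ch25h, which makes 25-hydroxycholesterol, rose by 2.73 ± 0.55 in Selfox (0.000867). Its level was low, with means of 0.379 ± 0.113 CPM (SD) in Control and 2.52 ± 2.32 in Selfox. Of 9 HDL genes, 5 fell and 1 rose in Selfox, and 1 fell and 1 rose in LPS. Apoa1, the main protein of HDL, fell by 1.02 ± 0.15 in Selfox (3.32e-05), and Scarb1, the HDL receptor, by 0.67 ± 0.10 (5.41e-05).

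Of 12 genes of intracellular sterol handling, 1 was higher and 3 lower in Selfox (4 of 12 called, a share near the 29.1% of all genes, and 2 without Control 49). The 2 called in LPS were lost in several fits, with a count of 0 to 3 when a library was left out and of 0 with no low-count filter, with 2 groups alone or without the late-clock libraries. Soat1, a sterol acyltransferase, fell by 1.26 ± 0.16 in Selfox (adjusted p 1.15e-05 in edgeR). Of 4 canalicular transporters other than Abcg5 and Abcg8, 0 were called in either model against Control by edgeR, DESeq2 or voom, and 1 in LPS and 0 in Selfox had an unadjusted p below 0.05. The nearest was Abcg2, also of family G, in LPS, at -0.87 ± 0.38 (adjusted p 0.135 in edgeR). Between Selfox and LPS 1 of the 4 was called, against 14.5% of all genes in either direction and 6.86% called higher. It was Abcg2, higher in Selfox by 1.12 ± 0.35 (adjusted p 0.0342 in edgeR). That call was lost in 8 of 17 fits without a library. Of 10 other transporters of families A and G, 2 were called in Selfox, both higher, against 29.1% of all genes in either direction and 14.2% called higher. Abca5 rose by 0.44 ± 0.09 (adjusted p 0.000678 in edgeR) and Abca9 by 0.80 ± 0.26 (0.0223, lost without Control 40 or Control 49, and with voom or 2 groups alone). Without Control 52 the count was 4. In LPS 0 of the 10 were called by edgeR or DESeq2 and 1 by voom, and 2 had an unadjusted p below 0.05. Of all genes, edgeR called 14.7% in LPS.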

How the data were processed

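RNA was sequenced from 23 stranded mRNA libraries of rat liver, 6 Control, 7 LPS and 10 Selfox. The deposited values are integer read counts per gene, made by the authors with FastQC, Trim Galore, STAR 2.7.9a and featureCounts of Subread 2.0.3, per the submitters' processing notes. Genome build, annotation, strand setting and pair counting were not given in the sources used here. Even numbers made 66.1% to 74.9% of each library's counts from 1 to 9; dividing counts by 2 was an alternative. Totals were 31889957 to 53806710 counts in Control, 70372293 to 79249765 in LPS and 65113145 to 74809989 in Selfox, so low genes are measured less precisely in Control.

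Counts were filtered (filterByExpr, minimum count 10), scaled by TMM and fitted over all 3 groups with edgeR 4.0.16 in R 4.3.3, by robust quasi-likelihood F tests with Benjamini-Hochberg adjustment over 15079 genes, threshold 0.05. SE is the fold change's size on the log2 scale over the root of F. CPM uses TMM-scaled sizes, and log2 CPM a prior count of 2. Correlations and ratio tests used permutation in scipy 1.17.1. DESeq2 1.42.0, voom of limma 3.58.1, other scalings and filters, fits of 2 groups, thinned counts, left-out libraries and runs without late-clock libraries (Dbp above Arntl) were alternatives. The last of these was added for the Abcg5 and Abcg8 relation and ratio after the data were seen. The steps were tested on simulated data.

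The members, gene lists and rules were chosen with earlier results of these data known. Named were the 8 genes, up to 3 members of each list and comparison by lowest adjusted p (1 where none passed), and the 3 most similar genes of each listed gene; others were named after their values were seen, and some are not reported here. Of 171 other listed genes 160 had a row. No pair of libraries was identical.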

Additional observations from a re-analysis of the deposited data

Results flagged for a closer look

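In 2 of 24 sets of libraries of a group, 1 library stood apart from the others of its group by the gap to its neighbour; chance gives about 1 in 20. Abcg1 in Control 55 was at 2.33 log2 CPM, below the other 5 controls, the nearest of which was at 2.79. Mylip in LPS 7 was at 2.71 log2 CPM, above the other 6 LPS libraries, the nearest of which was at 2.15. Both libraries are among the 5 in which Dbp exceeded Arntl, and the part of the clock in these values was not tested.

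For 5 of the 8 genes the effect of Selfox differed from the effect of LPS, which, with the controls shared, is the difference between the models (edgeR, adjusted p below 0.05). Of all genes tested, 14.5% were called in that comparison and 7.64% were called lower in Selfox. The log2 fold change of Selfox minus LPS was -2.28 for Abcg8, -2.09 for Abcg5, -0.88 for Mylip, -0.46 for Abcg1 and -0.36 for Abca1. Without the 5 libraries of later clock phase only Mylip of these kept its call, and 1434 genes in all were called, against 2187 with all libraries. The values were then -1.94 for Abcg8, -1.72 for Abcg5, -0.67 for Mylip, -0.33 for Abcg1 and -0.33 for Abca1.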

How the results depend on the processing

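Of the 8 genes, LPS with Control called 1, and DESeq2 and voom called 2 each; leaving out a library gave 0 (without LPS 5) to 2 (without Control 55, LPS 1 or LPS 2). All genes called in that comparison, 2217, ran from 1409 without Control 49 to 2723 without Control 55. Selfox with LPS called 5 of the 8, against 1 without the late-clock libraries, where all genes called went from 2187 to 1434; leaving out a library kept 5. Replicate numbers 1 to 7 are shared by LPS and Selfox. Deviations of same-numbered libraries correlated from -0.0595 to 0.16, with 1 of 7 pairs over 0.1 and 1 library closest to its own number. These values show no strong pairing, and they cannot exclude a weak one. With a replicate block over the 14 libraries of shared numbers, 3 of the 8 genes and 1259 genes in all were called. Without the block the same 14 gave 3 and 1617. Abcg5 and Abcg8 lost their calls in both fits. Their adjusted p in edgeR was 0.101 and 0.111 with the block, and 0.0516 and 0.0793 without it. Selfox minus Control in the Abcg5 to Abcg8 log2 ratio was -0.54 and became -0.76 without the late-clock libraries. Values near 0 changed sign: Abcg8 in LPS with Control was 0.0066 with no filter and -0.30 to 0.31 with a library left out, Abcg1 in LPS with Control was -0.0031 with voom and -0.16 without late-clock libraries, and Mylip in LPS with Control was -0.081 without late-clock libraries and -0.093 to 0.095 with a library left out. Lpcat3 in Selfox with LPS was -0.047 to 0.088 with a library left out. For these changes the cause was not tested. Among the 8 genes in Selfox with Control, the calls of Abcg5, Abcg8, Nr1h3, Mylip and Lpcat3 held with each library left out, and 5 to 7 of the 8 genes were called. No other scaling moved the median of all genes by over 0.1. The depth limits Abcg8 most in Selfox 6, where 18 counts were read.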

Other observations

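Genes of cholesterol synthesis and uptake, the SREBP2 targets, were higher in both models than in Control in 10 of 15 (LPS, median log2 fold change 0.84, against 0.01 for all genes) and in 7 of 15 (Selfox, median 0.56). Of all genes, 7.71% were called higher in LPS and 14.2% in Selfox, and 7.64% lower in Selfox against LPS. Fdps rose by 1.28 ± 0.24 on the log2 scale in LPS and by 1.12 ± 0.22 in Selfox, and Dhcr7 by 1.19 ± 0.23 in LPS and 1.2 ± 0.22 in Selfox. In Selfox against LPS 3 were lower, among them Sqle (-0.90 ± 0.25, a call lost without LPS 5). Without the late-clock libraries the count in Selfox with Control was 12, and that in Selfox with LPS was 1.

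Of 7 acyltransferases related to Lpcat3, 1 was called in LPS and 2 in Selfox, all lower. These shares are near the 14.7% and 29.1% of all genes called in either direction, while 6.99% and 14.9% were called lower. Agpat3 fell by 0.75 ± 0.15 in LPS (adjusted p 0.00158 in edgeR) and by 0.61 ± 0.13 in Selfox (0.00159). Lpcat4 had -0.70 ± 0.22 in Selfox (0.0194, lost without Control 46 or Control 52). The Selfox count of 2 became 1 without either of these controls and 4 without Control 55, with voom or without the late-clock libraries. For the markers of other cells that follow, 14.2% of all genes were called higher and 14.9% lower in Selfox, and 7.71% higher in LPS. Among them, 3 of 7 stellate genes were higher in Selfox than in Control, a count of 3 in each alternative and with each library left out. Of 5 cholangiocyte genes 3 were higher in LPS, and 1 with a minimum count of 50. All 4 neutrophil genes tested were called higher in Selfox, but each was above all controls in only 5 of 10 libraries, and the count was 0 with voom, 0 without the late-clock libraries and 2 without Control 52. Of 8 lymphoid genes 5 were called lower in Selfox, and the count was 2 with a minimum count of 50 and 3 without Control 40, Control 46, Control 52, Selfox 2, Selfox 3, Selfox 4 or Selfox 5, with no filter or with 2 groups alone.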
